A study of Hyphopichia burtonii with 8 samples.

Results

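In Hyphopichia burtonii, 123 of 6166 measured genes had clearly more RNA in medium with sodium chloride than in any other culture of the study. A gene was taken when the lower of its 2 NaCl libraries reached at least 10 FPKM and at least 2 times the highest of the other 6 libraries. The genes were thus chosen by their measured NaCl levels against those in the other media. FPKM counts sequenced fragments per length of gene, scaled to library depth. Before any were left out, 136 genes passed both thresholds. The rule then left out 19 listed locus tags, 13 of which had passed, among them the arginine synthesis genes ARG1 and CPA1. Of the 123 genes, 56 had a symbol and 67 were known by locus tag alone, and all 123 were annotated as protein-coding. They are called the NaCl-raised genes below. Their high NaCl level was the condition for entry, so every NaCl value of these 123 genes is a description and carries no test.

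The yeast was strain KJJ43, wild type and isolated from Nuruk, a Korean fermentation starter. Cells at an OD600 of 0.6 were put into rich YPD broth (yeast extract, peptone, glucose) alone or with NaCl, KCl or sorbitol at 1 M, and RNA was taken after 1 h from cells equal to an OD of 5. All 4 media thus shared the YPD base, and each had 2 libraries, written here as NaCl 1, NaCl 2 and so on. The labels do not tell whether duplicates came from separate cultures, so the p-values here reflect no more than the spread among these libraries, which may be technical.

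Sodium and potassium chloride and sorbitol all raise the osmotic strength of a medium, and the salts add ions as well. At equal molarity a salt, which splits into ions, raises it more than sorbitol does. Ions and osmotic strength therefore cannot be told apart where a salt is set beside sorbitol here. Potassium is the main cation inside yeast cells, whereas sodium is toxic when it accumulates. Many of the named genes make amino acids; in Saccharomyces cerevisiae such genes share an activator, Gcn4, whose production rises when amino acids are scarce, a response called general amino acid control.

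The 123 genes took up 3.41% and 3.16% of the summed FPKM in the NaCl libraries, 0.657% and 0.748% in the KCl libraries, 0.431% and 0.450% in the YPD libraries, and 0.422% and 0.449% in the sorbitol libraries. The median of their mean levels was 113 FPKM in NaCl, 29.9 in KCl, 20.9 in sorbitol and 20.1 in YPD, whereas the median over all genes lay between 29.8 and 32.8 FPKM in the 4 media. Outside NaCl they were therefore genes of ordinary or somewhat low level. The ratio of the lower NaCl library to the highest other library had a median of 3.10. It was at least 5 for 30 genes and at least 10 for 11 genes. A KCl library was the highest of the other 6 for 79 genes, a YPD library for 27 and a sorbitol library for 17. The NaCl duplicates lay within 1.5 times of each other for 117 of the 123, but the rule, set on the lower of them, favours genes whose NaCl duplicates agree.

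**Figure D1:**
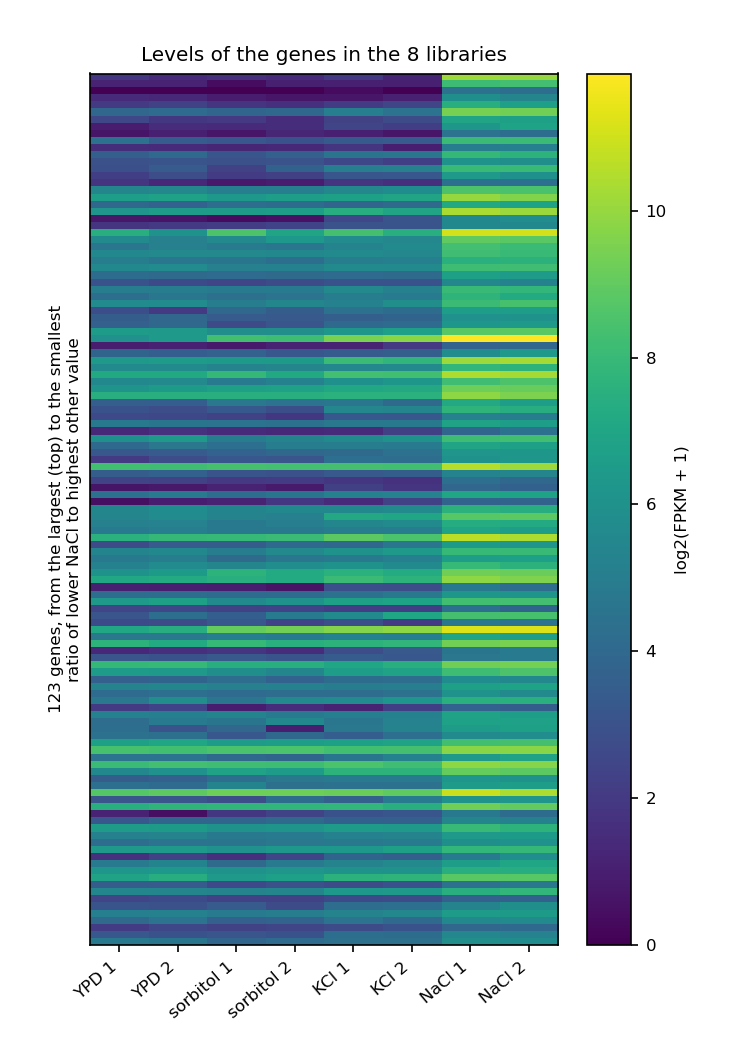
Level of each of the 123 NaCl-raised genes (1 line per gene, ordered by the ratio of the lower NaCl to the highest other library) in the 8 libraries, as log2(FPKM + 1) by colour. The 2 NaCl columns are the brightest on every line, because the rule asks for this, and the remaining columns differ little for most genes.

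At the edge of the rule, the last genes inside were HYPBUDRAFT_153893 and HYPBUDRAFT_134640, both with a ratio of 2.03, and GDB1, the glycogen debranching enzyme, with 2.00. The first genes outside were ICL1, isocitrate lyase of the glyoxylate cycle, at 1.98, RCT1 at 1.97 and FAR1 at 1.96. No gap separated these sides.

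Amino acid synthesis held the largest share of the named genes. Of 80 measured genes on 5 lists for the synthesis and use of lysine, the branched-chain amino acids, arginine with glutamate, histidine with the aromatic amino acids, and serine with threonine, methionine and cysteine, 27 were NaCl-raised. The lists were drawn up with earlier results of these data known, and their counts are descriptions. GCN4 itself, which activates amino acid synthesis genes in other yeasts, stood at 878 and 856 FPKM in NaCl, against 345 and 310.3 in YPD, 309 and 325 in KCl, and 355 and 363 in sorbitol. Its 6 values outside NaCl lay close together, and the KCl difference from YPD was -0.05 ± 0.12 on the log2 scale (limma, adjusted p = 0.84).

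Lysine synthesis was covered almost from end to end, with 7 of 10 measured list genes. LYS22, homocitrate synthase at the start of the pathway, stood at 1318 and 1078 FPKM in NaCl, 170.0 and 121 in KCl, 72.2 and 90.5 in YPD, and 89.4 and 95.9 in sorbitol. LYS9, which makes saccharopine near the end, stood at 1654 and 1372 FPKM in NaCl, 464 and 359 in KCl, 188 and 237 in YPD, and 249 and 268 in sorbitol. In both genes the KCl libraries lay above all YPD and sorbitol libraries. LYS12, homoisocitrate dehydrogenase, had the same order, with 921 and 763 FPKM in NaCl, 275 and 205 in KCl and 132 to 176 in YPD and sorbitol. LYS4, homoaconitase, stood at 119.6 and 106 FPKM in NaCl and 15.9 to 30.5 elsewhere. LYS2, aminoadipate reductase, stood at 243 and 194 FPKM in NaCl and 36.6 to 68.3 elsewhere. The KCl libraries lay above both YPD libraries in LYS4 and overlapped them in LYS2. LYS1, saccharopine dehydrogenase, reached 319 and 271 FPKM in NaCl against 24.3 to 48.3 elsewhere. ARO8, an aminotransferase of aromatic amino acid and lysine synthesis, reached 914 and 740.3 FPKM in NaCl against 173 to 192 elsewhere, with the smallest ratio of highest to lowest value outside NaCl of the 7. Of the 3 list genes that were not NaCl-raised, 2 were lower in NaCl than in YPD. LYS144 fell by 1.17 on the log2 scale (limma, adjusted p = 0.0037). LYS21, a second homocitrate synthase, fell by 0.54 (adjusted p = 0.014; lost without YPD 2, NaCl 1 or NaCl 2, up to 0.072).

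The branched-chain list had 7 NaCl-raised genes of 10 measured. ILV2 and ILV6, the catalytic and regulatory subunits of acetolactate synthase, which opens the pathway, stood at 617 and 560.0 FPKM and at 921 and 839.8 FPKM in NaCl. Outside NaCl, ILV2 ranged from 69.6 to 144 FPKM, lowest in YPD and highest in KCl, and ILV6 from 270.0 to 365. ILV5, the next enzyme, acetohydroxyacid reductoisomerase, stood at 1342 and 1233 FPKM in NaCl, 315 and 304 in KCl, 147 and 149 in YPD, and 235 and 145 in sorbitol. The enzymes specific to leucine followed. LEU4 and LEU42, both named as isopropylmalate synthases, stood at 305 and 327 FPKM and at 1016 and 792 FPKM in NaCl, against 91.5 to 128 and 78.2 to 119.9 elsewhere. LEU1, isopropylmalate isomerase, stood at 442 and 449 FPKM in NaCl against 56.5 to 102 elsewhere. LEU2, isopropylmalate dehydrogenase, stood at 298 and 376 FPKM in NaCl, 60.9 and 76.3 in KCl, 45.0 and 47.5 in YPD, and 29.7 and 35.6 in sorbitol. Its 4 media did not overlap, but KCl and sorbitol did not pass against YPD (limma, adjusted p = 0.092 and 0.14). Both KCl libraries lay above both YPD libraries in 28.5% of all tested genes. Both sorbitol libraries lay below them in 29.5%. Of the other 3 list genes, ILV3 rose by 1.37 ± 0.15 (log2, limma, adjusted p = 0.00044) and ILV1 by 1.06 ± 0.22 (adjusted p = 0.0097; lost without YPD 1 or NaCl 1, up to 0.076), while LEU3, a regulator of leucine genes in Saccharomyces cerevisiae, fell by 0.77 (adjusted p = 0.022; lost without YPD 2, NaCl 1 or NaCl 2, up to 0.12).

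Arginine synthesis gave 7 genes of the 21 measured on its list, 6 of which are described. ARG5,6, ARG8 and ECM42 carry out steps from glutamate to ornithine. ARG5,6 stood at 208 and 151 FPKM in NaCl and 18.3 to 31.5 elsewhere, ARG8 at 122 and 97.2 against 26.4 to 32.2, and ECM42, ornithine acetyltransferase, at 121 and 95.5 against 25.4 to 36.7. ARG3, ornithine carbamoyltransferase, held 106 and 92.0 FPKM in NaCl and 16.2 to 17.3 in the other 6 libraries. ARG4, argininosuccinate lyase and the last step, held 295 and 267 FPKM in NaCl and 44.0 to 47.9 elsewhere. ARG3 and ARG4 were nearly level across YPD, KCl and sorbitol. PRO2, of proline synthesis, stood at 271 and 335 FPKM in NaCl against 30.3 to 58.2 elsewhere. Of the 14 other tested list genes, 6 were higher in NaCl than in YPD and 2 lower (1 lower without YPD 2 or NaCl 2). ARG1, argininosuccinate synthase, and CPA1, the small carbamoyl phosphate synthase subunit, were among the 6 and were left out by the rule's list alone.

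Fewer genes came from the remaining amino acid lists. HIS1, which opens histidine synthesis, stood at 1513 and 1129.8 FPKM in NaCl and 299 to 343 elsewhere. HIS5 stood at 195 and 168 FPKM in NaCl against 40.5 to 54.1, and HIS7 at 180.2 and 168 against 64.4 to 79.3. None of the 3 histidine genes passed in a comparison among YPD, KCl and sorbitol. Of 16 other tested genes on the histidine and aromatic list, 9 were higher in NaCl than in YPD (4 without YPD 1 or NaCl 2, 5 without NaCl 1) and 1 lower (0 without YPD 1 or NaCl 1). HOM3, aspartate kinase, stood at 110.2 and 112 FPKM in NaCl and 18.0 to 45.1 elsewhere. THR4, threonine synthase, stood at 627 and 518 FPKM in NaCl and 172 to 232 elsewhere. MET13, methylenetetrahydrofolate reductase, stood at 48.4 and 56.1 FPKM in NaCl and 8.36 to 20.2 elsewhere, with both YPD libraries at the top of that range. Of the 17 other tested genes on this list, 7 were higher in NaCl than in YPD and 3 lower. ASN1, asparagine synthetase and on none of the lists, was among the most abundant, at 1924 and 1379 FPKM in NaCl against 428 to 612 elsewhere. AAT1, aspartate aminotransferase, stood at 629 and 660.0 FPKM in NaCl, 238 and 248 in YPD, 170.2 and 179 in sorbitol, and 128 and 170.2 in KCl. AAT1 was thus lower in KCl than in YPD while highest in NaCl.

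Over the whole of the 5 amino acid lists, 51 of the 80 genes were called higher in NaCl than in YPD and 9 lower, with a median log2 difference of 1.10. The 53 of them that were not NaCl-raised had a median NaCl difference from YPD of 0.45 on the log2 scale, and 24 were higher and 9 lower. Without YPD 1, 15 were higher. Over all tested genes 16.0% were called higher and 11.5% lower in this comparison, with a median log2 difference of 0.00. The 53 are what remained once the rule had taken the genes highest in NaCl, so their split between higher and lower is a description, as are the counts of other genes given for each list. The 13 passing genes left out of the rule are counted among the others where they are on a list.

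**Figure D2:**
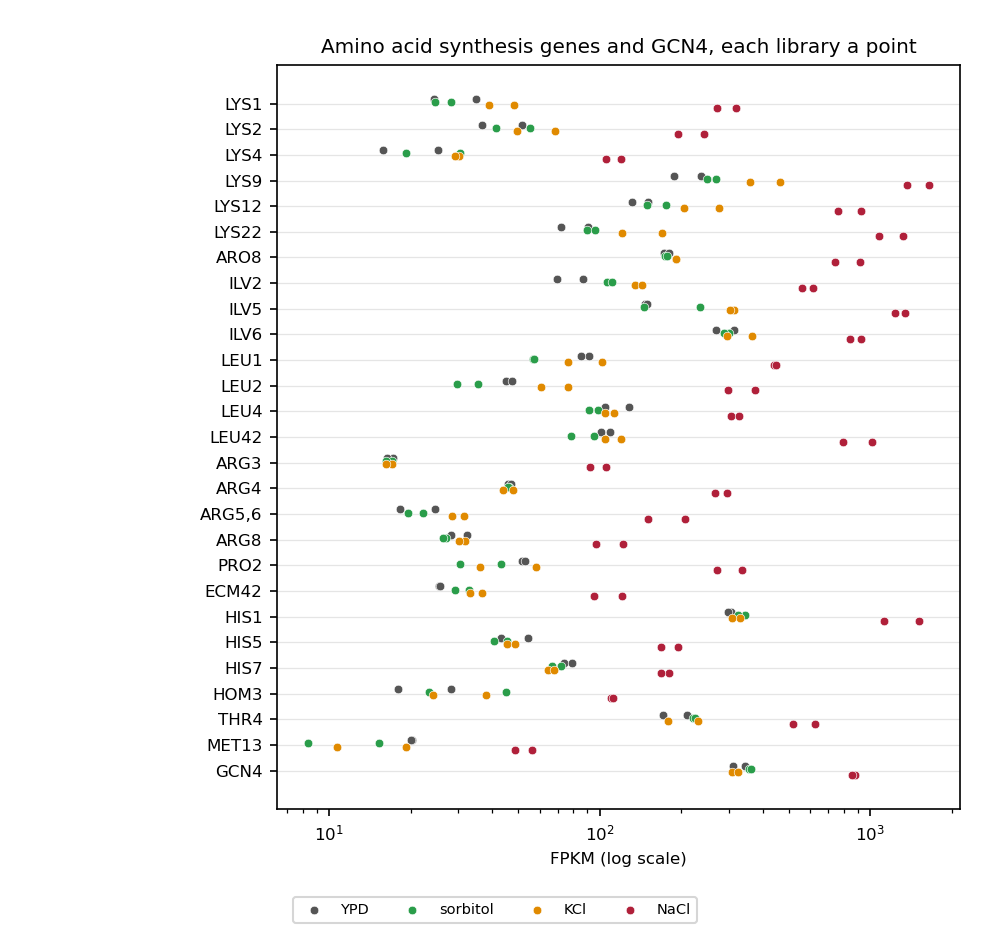
FPKM (log axis) of 26 of the 27 NaCl-raised genes of the 5 amino acid lists and of GCN4, each point 1 library, coloured by medium. The NaCl points lie to the right of all others for each gene by the rule. The KCl points of LYS9, LYS12, LYS22, ILV2 and ILV5 lie to the right of both YPD points, while those of ARG3 and ARG4 lie close to the YPD points.

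Nitrogen-use genes formed a smaller group, with 4 NaCl-raised genes of 23 measured. AMO1 and DUR3 are also on this list and passed both thresholds, but were left out by the rule's list of locus tags. DUR1,2, urea amidolyase, stood at 65.5 and 72.1 FPKM in NaCl, but its duplicates were far apart in KCl, at 11.6 and 29.1, and in sorbitol, at 5.88 and 17.4, beside 7.73 and 7.82 in YPD. DAL1, allantoinase, stood at 74.97 and 66.6 FPKM in NaCl, 29.4 and 28.0 in KCl, 18.4 and 25.5 in sorbitol, and 10.3 and 11.6 in YPD. Its levels were ordered NaCl, KCl, sorbitol, YPD with no overlap, but KCl did not pass against sorbitol (limma, adjusted p = 0.29). UGA1, a transaminase of 4-aminobutyrate use, stood at 128 and 117 FPKM in NaCl against 18.7 to 36.9 elsewhere, and UGA11 at 94.2 and 88.9 against 30.05 to 43.6. Of the other 19 tested genes on the list, 9 were higher in NaCl than in YPD and 2 lower. The 2 lower calls became 0 without YPD 2, NaCl 1, NaCl 2, KCl 1 or KCl 2, and 1 without YPD 1, sorbitol 1 or sorbitol 2. NIT2, on no list, stood at 99.96 and 126 FPKM in NaCl and 16.3 to 47.1 elsewhere.

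Enzymes of the vacuole and of protein and polymer breakdown were present as single genes. SAP7, on the protease list, passed both thresholds but was left out by the rule's list of locus tags. PRC3, a carboxypeptidase, stood at 97.8 and 103 FPKM in NaCl against 16.0 to 34.3. LAP3, an aminopeptidase, stood at 34.8 and 32.0 FPKM in NaCl, 8.69 and 8.45 in KCl, 5.10 and 4.98 in YPD, and 4.00 and 2.84 in sorbitol, so that no 2 media overlapped. Its KCl and sorbitol differences from YPD did not pass, however (limma, adjusted p = 0.065 and 0.19). AUT7, the ubiquitin-like protein of autophagosomes, stood at 162 and 154 FPKM in NaCl against 27.1 to 50.7. AMS1, vacuolar alpha-mannosidase, stood at 21.3 and 25.5 FPKM in NaCl against 5.12 to 10.2, with YPD above KCl and sorbitol. GDB1 stood at 57.5 and 53.3 FPKM in NaCl against 13.8 to 26.6, again with YPD the highest of the other media. Of the other tested genes of the protease list, 2 of 7 were higher in NaCl than in YPD and 0 lower, and of the autophagy list 0 of 4 were higher and 0 lower.

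Mitochondrial and peroxisomal enzymes were few. IDP1, mitochondrial NADP-dependent isocitrate dehydrogenase, stood at 1113 and 1219.6 FPKM in NaCl, 275 and 224 in KCl, 83.0 and 91.8 in YPD, and 88.5 and 87.2 in sorbitol. SFC1, the succinate-fumarate carrier, stood at 23.2 and 29.4 FPKM in NaCl, 6.03 and 8.95 in KCl, 1.52 and 2.14 in YPD, and 2.50 and 1.84 in sorbitol. For both, KCl lay between NaCl and the 2 remaining media, which overlapped. FAA2, a fatty acyl-CoA synthetase, was one of the lowest members, at 11.4 and 11.9 FPKM in NaCl against 3.89 to 5.52. HPD1, 3-hydroxypropionate dehydrogenase in Candida albicans, stood at 19.5 and 18.9 FPKM in NaCl against 0.745 to 2.601. Around them, 10 of the 28 other tested genes of the peroxisome and fatty acid list were higher in NaCl than in YPD and 0 lower, but the 10 fell to 3 without YPD 1, 5 without YPD 2, 3 without NaCl 1 and 4 without NaCl 2. On the glyoxylate and acetate list 5 of 12 others were higher (3 without YPD 2 or NaCl 1) and 0 lower.

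At the cell surface, ECM331, a GPI-anchored protein in Candida albicans, stood at 534 and 472 FPKM in NaCl, 206 and 204 in KCl, 112 and 93.0 in sorbitol, and 46.3 and 62.4 in YPD. BMT4, a beta-mannosyltransferase in Candida albicans, stood at 19.3 and 13.4 FPKM in NaCl against 3.44 to 5.04. MNN4-4, of the family that adds mannosylphosphate to cell wall glycans in Candida albicans, stood at 67.5 and 51.0 FPKM in NaCl against 16.7 to 20.3. ECM331 had no overlap between any of the 4 media and was lowest in YPD. PLB5, a phospholipase B, stood at 59.3 and 63.5 FPKM in NaCl against 17.7 to 27.3. SKN2 stood at 86.1 and 71.9 FPKM in NaCl, 15.2 and 24.7 in KCl, 10.3 and 15.8 in sorbitol, and 5.79 and 9.48 in YPD.

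Other symbols stood alone. CDC21, thymidylate synthase, which makes a DNA precursor, stood at 443 and 464 FPKM in NaCl, 143 and 125 in KCl, 41.1 and 52.3 in YPD, and 38.1 and 34.5 in sorbitol. BIO2, biotin synthase, stood at 71.0 and 76.5 FPKM in NaCl, 16.2 and 21.0 in KCl, 12.2 and 14.9 in sorbitol, and 8.40 and 9.57 in YPD. WOR3, a regulator of white-opaque switching in Candida albicans, stood at 90.7 and 99.6 FPKM in NaCl against 16.8 to 40.1, where the top value was sorbitol 1 and all others were at most 21.6. FCY23, of a purine and cytosine permease family in Candida albicans, stood at 115 and 97.9 FPKM in NaCl against 28.4 to 40.02. LPG20 stood at 285 and 297 FPKM against 35.1 to 51.3, MODF at 267 and 231 against 28.2 to 46.6, and HRQ2 at 74.6 and 85.6 against 5.65 to 16.9. On the DNA replication and repair list, 14 of 32 other genes were higher in NaCl than in YPD (8 without YPD 1, 6 without NaCl 1) and 3 lower (1 without YPD 2 or NaCl 2, 0 without NaCl 1).

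The lists of cation transport, drug efflux, cell wall, oxidative stress defence, hyphal and mating genes, and sugar transport contributed no gene to the 123. HAK1, PHR1, SCW4 and AHP1 are on these lists and passed both thresholds but were left out by the rule's list of locus tags. The counts that follow stand beside the 16.0% of all tested genes called higher and the 11.5% called lower in NaCl against YPD, and those for drug efflux and sugar transport were close to or below these shares for higher calls. In NaCl against YPD, 6 of 13 cation transport genes were higher (1 without YPD 1 or NaCl 1) and 1 lower (0 without YPD 1, NaCl 1 or NaCl 2), and 11 of 32 cell wall genes were higher and 3 lower (1 lower without YPD 1, YPD 2 or NaCl 1, 0 without NaCl 2). For oxidative stress defence 6 of 17 were higher and 4 lower. For hyphal and mating genes 9 of 25 were higher and 2 lower (1 without NaCl 2). For drug efflux 2 of 11 were higher (1 without NaCl 1) and 1 lower, and for sugar transport 1 of 16 was higher (2 without NaCl 1, KCl 1 or KCl 2) and 4 lower (2 without YPD 1 or NaCl 1). Around ECM331, on the calcineurin list, 4 of 11 others were higher (1 without YPD 1 or NaCl 1) and 0 lower. Around BIO2, on the vitamin list, 12 of 27 others were lower (5 without YPD 1, 6 without YPD 2, 4 without NaCl 1, 6 without NaCl 2) and 3 higher (1 without YPD 1, 0 without YPD 2, NaCl 1 or NaCl 2). Around GCN4, on the list for the control of amino acid synthesis genes, 0 of 10 others were higher (1 without KCl 1 or KCl 2) and 1 was lower. This was GCN3, a translation initiation factor subunit, which fell by 0.74 (log2, limma, adjusted p = 0.0046).

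The genes with the greatest NaCl ratios had no symbol. HYPBUDRAFT_151534 stood at 1109 and 1029 FPKM in NaCl, 3.06 and 1.37 in KCl, 2.72 and 1.78 in YPD, and 2.15 and 1.67 in sorbitol, a ratio of 336. HYPBUDRAFT_103068 stood at 284 and 322 FPKM in NaCl and 0.330 to 1.21 elsewhere, a ratio of 235. Both were among the weakly expressed genes in the 6 libraries outside NaCl. HYPBUDRAFT_226404 stood at 20.8 and 18.3 FPKM in NaCl, was listed at 0.275 in KCl 1 and was listed at 0 in the other 5 libraries. It was the 1 member that entered the tests below through its NaCl libraries alone, whereas the other 122 reached 1 FPKM in at least 2 of the 6 other libraries. HYPBUDRAFT_154021 stood at 58.9 and 41.1 FPKM in NaCl against 0.631 to 1.79, and HYPBUDRAFT_146588 at 177 and 102 against 2.13 to 4.60. HYPBUDRAFT_154198 stood at 701 and 647 FPKM in NaCl, 32.9 and 21.7 in KCl, 14.2 and 16.6 in YPD, and 13.5 and 14.4 in sorbitol. HYPBUDRAFT_146347 stood at 119.7 and 107 FPKM against 1.81 to 5.74, and HYPBUDRAFT_153206 at 22.0 and 18.8 against 0.615 to 1.42. HYPBUDRAFT_153942 stood at 77.7 and 119 FPKM in NaCl, 4.51 and 3.56 in KCl and 0.912 to 1.90 in YPD and sorbitol. HYPBUDRAFT_11718 stood at 271 and 269.9 FPKM in NaCl against 7.01 to 20.5, with YPD 1 apart at the top. Of these 10, HYPBUDRAFT_154198 and HYPBUDRAFT_153942 alone had both KCl libraries above all YPD and sorbitol libraries. Among all NaCl-raised genes 53 had this order, and among all tested genes 13.9%.

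**Figure D3:**
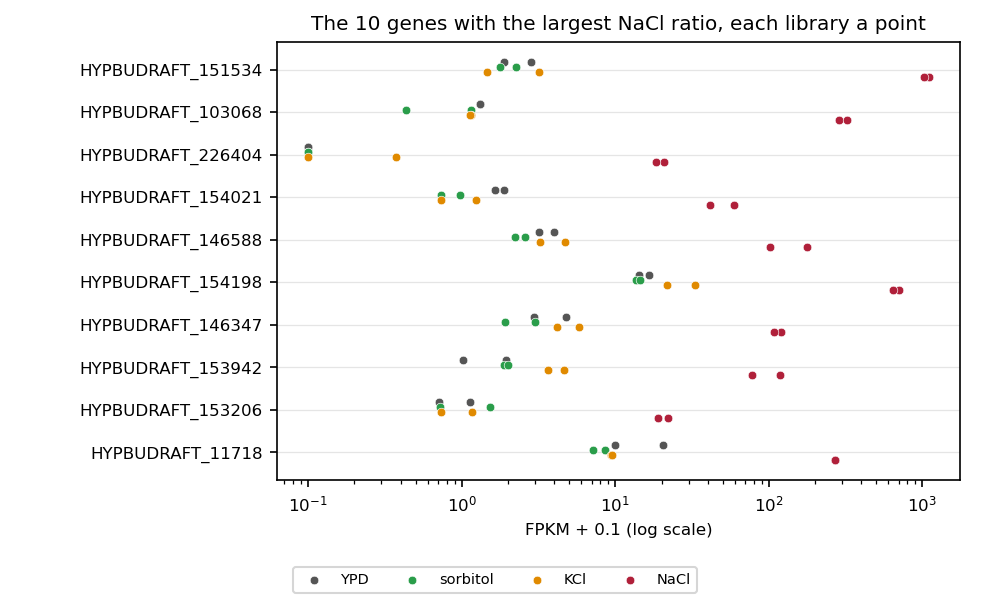
FPKM + 0.1 (log axis) of the 10 NaCl-raised genes with the largest ratio of lower NaCl to highest other library, each point 1 library, coloured by medium; points of equal value coincide, as do the values of 0 of HYPBUDRAFT_226404. The NaCl points stand far to the right, up to 336 times the highest other value in HYPBUDRAFT_151534.

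Neighbours on the chromosome were looked up in RefSeq's Hypbu1 assembly, made from a different strain. Of its 6146 neighbouring gene pairs, 9 joined 2 NaCl-raised genes. Whether this is more than other gene sets of this size would give was not tested. LYS22 lay beside HYPBUDRAFT_226404, ILV6 beside HYPBUDRAFT_150334, ARG3 beside BMT4, HPD1 beside HYPBUDRAFT_103943, NIT2 beside HYPBUDRAFT_179597 and PLB5 beside HYPBUDRAFT_153572. ARG4 and HYPBUDRAFT_193729 overlapped in that annotation, so reads of this pair may not be separable, as the strand setting of the counting is not stated. Gaps were short in the pairs of ILV6 (97 nt), NIT2 (98 nt) and LYS22 (144 nt). Whether reads of one gene ran over into its neighbour was not tested. The remaining pairs were HYPBUDRAFT_133549 with HYPBUDRAFT_164867 and HYPBUDRAFT_120173 with HYPBUDRAFT_152040.

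The 6 libraries without sodium chloride allow tests that the rule did not fix, since it only held them at or below the lower NaCl value divided by 2. The first asks whether the NaCl-raised genes also moved with potassium chloride. Of the 123, 32 rose in KCl against YPD and 1, AAT1, fell (limma on log2(FPKM + 1), adjusted p under 0.05 over 5765 tested genes), and 90 did not pass. The 32 are 26.0% of the NaCl-raised genes, where 6.45% of all tested genes were called higher and 4.51% lower. The median log2 difference of all 123 was 0.30, against 0.01 over all tested genes. Both KCl libraries lay above both YPD libraries for 65 of the 123, where 28.5% of tested genes did so, and below for 14, where 26.3% did so. "Raised by NaCl alone" is thus not an exact name for the set, as these 32 genes also rose, to a lower level, in KCl. The count of 32 fell most without YPD 1, KCl 1 or KCl 2, and so did the calls over all tested genes.

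A group of 12 genes kept its KCl call without each library in turn and under every other setting tried. HYPBUDRAFT_164360, the most abundant NaCl-raised gene, stood at 3679.7 and 3739 FPKM in NaCl, 704 and 861 in KCl, 307 and 293 in sorbitol, and 63.0 and 83.9 in YPD. Its KCl rise over YPD was 3.40 ± 0.16 on the log2 scale (adjusted p = 4.7e-05). HYPBUDRAFT_216990 stood at 2401 and 2401 FPKM in NaCl, 818 and 919 in KCl, 527 and 647 in sorbitol, and 137 and 168 in YPD, and its KCl rise was 2.51 ± 0.15 (adjusted p = 7.6e-05). In both, all 4 media were separate and in the same order. ECM331 shared that order and rose in KCl by 1.91 ± 0.17 (adjusted p = 0.00085). IDP1 rose by 1.498 ± 0.142 (adjusted p = 0.0011) and CDC21 by 1.51 ± 0.16 (adjusted p = 0.0019), and in neither was sorbitol above YPD in both libraries.

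HYPBUDRAFT_154528 stood at 213 and 166 FPKM in NaCl, 44.7 and 41.5 in KCl, 6.83 and 5.92 in YPD, and 8.59 and 6.32 in sorbitol, with a KCl rise of 2.58 ± 0.20 (log2, adjusted p = 0.00032). HYPBUDRAFT_151380 stood at 45.2 and 55.8 FPKM in NaCl, 4.82 and 7.37 in KCl and 0.299 to 0.720 in YPD and sorbitol, and rose by 2.07 ± 0.24 (adjusted p = 0.0031). HYPBUDRAFT_4116 stood at 26.5 and 17.8 FPKM in NaCl, 6.45 and 5.90 in KCl and 0.529 to 1.06 in YPD and sorbitol, and rose by 1.82 ± 0.24 (adjusted p = 0.0053). These 3 were higher in both salts than in YPD and sorbitol, with KCl well below NaCl. HYPBUDRAFT_10229 (27.0 and 17.4 FPKM in NaCl, 6.86 and 7.92 in KCl, 2.74 and 4.38 in sorbitol, 1.20 and 0.415 in YPD) rose by 2.25 ± 0.31 (adjusted p = 0.0058). HYPBUDRAFT_153886 (101 and 97.2 FPKM in NaCl, 21.5 and 17.2 in KCl, 15.3 and 10.3 in sorbitol, 6.26 and 2.99 in YPD) rose by 1.91 ± 0.30 (adjusted p = 0.0089). HYPBUDRAFT_152485 (64.7 and 77.8 FPKM in NaCl, 19.3 and 17.7 in KCl, 8.22 and 7.67 in sorbitol, 2.99 and 5.99 in YPD) rose by 1.88 ± 0.26 (adjusted p = 0.0059). Sorbitol lay between KCl and YPD in these 3. HYPBUDRAFT_134640 completed the 12, with 43.4 and 37.9 FPKM in NaCl, 18.7 and 17.6 in KCl and 6.97 to 8.32 in YPD and sorbitol, and a rise of 1.15 ± 0.17 (adjusted p = 0.0076).

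**Figure D4:**
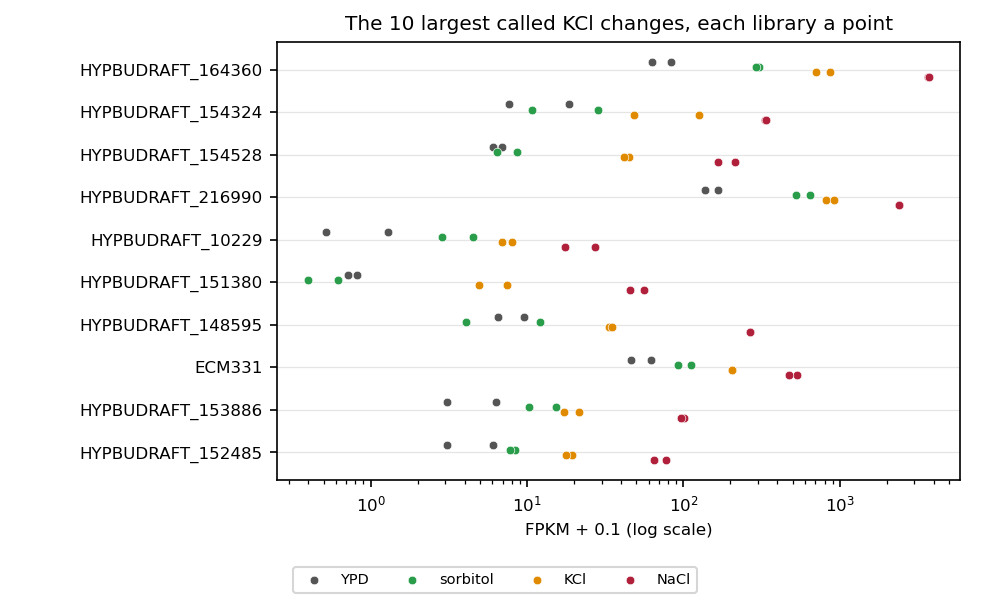
FPKM + 0.1 (log axis) of the 10 NaCl-raised genes with the largest called KCl difference from YPD, each point 1 library, coloured by medium. HYPBUDRAFT_164360, HYPBUDRAFT_216990 and ECM331 step up from YPD through sorbitol and KCl to NaCl, whereas the sorbitol points of HYPBUDRAFT_154528 and HYPBUDRAFT_151380 lie near the YPD points.

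Of the 27 amino acid genes on the 5 lists, 5 were called higher in KCl and 0 lower, where 6.45% of all tested genes were called higher. The median log2 difference of the 27 was 0.17. Whether they differed in this from the other NaCl-raised genes was not tested. Each of the 5 calls was lost without at least 1 library, given in brackets with the largest adjusted p then found. They were LYS9 (0.95 ± 0.18, adjusted p = 0.015; YPD 1 or KCl 1, 0.11), LYS12 (0.75 ± 0.18, adjusted p = 0.037; YPD 1, YPD 2, NaCl 1, NaCl 2 or KCl 1, 0.21) and LYS22 (0.82 ± 0.20, adjusted p = 0.035; YPD 1, YPD 2, NaCl 1, NaCl 2 or KCl 1, 0.21) of lysine synthesis. From the branched-chain pathway came ILV2 (0.84 ± 0.14, adjusted p = 0.012; YPD 1 or KCl 2, 0.078) and ILV5 (1.06 ± 0.20, adjusted p = 0.017; YPD 1, YPD 2, KCl 1 or KCl 2, 0.10). None of the 7 NaCl-raised genes of the arginine and glutamate list was called in KCl, and ARG3 and ARG4 differed from YPD by -0.01 ± 0.15 and -0.01 ± 0.13. Of the 14 other tested genes of that list, 3 were called higher in KCl than in YPD, ARG1 among them, and 1 lower. Over all tested genes 6.45% were called higher and 4.51% lower. AAT1 fell in KCl by 0.72 (log2, SE 0.15, adjusted p = 0.023), a call lost without YPD 1, YPD 2 or KCl 1 (adjusted p up to 0.11).

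The remaining named rises in KCl were also lost without at least 1 library. DAL1 rose by 1.31 ± 0.19 (adjusted p = 0.0063; YPD 1, 0.052), SFC1 by 1.57 ± 0.25 (adjusted p = 0.0097; YPD 1, 0.073), BIO2 by 0.96 ± 0.19 (adjusted p = 0.018; YPD 1 or KCl 2, 0.11) and SKN2 by 1.27 ± 0.31 (adjusted p = 0.036; YPD 1, NaCl 1, NaCl 2 or KCl 2, 0.22). HYPBUDRAFT_154324 had KCl values of 47.9 and 126 FPKM beside 7.61 and 18.3 in YPD, 10.7 and 28.6 in sorbitol and 334 and 337 in NaCl. Its rise of 2.61 ± 0.57 (adjusted p = 0.025; YPD 1 or KCl 2, 0.16) thus rested on duplicates that lay far apart. HYPBUDRAFT_148595, at 267 and 265 FPKM in NaCl, 33.3 and 34.8 in KCl, 6.38 and 9.50 in YPD and 3.98 and 12.0 in sorbitol, rose by 1.99 ± 0.39 (adjusted p = 0.018; YPD 1, KCl 1 or KCl 2, 0.12). Of the 10 genes with the largest NaCl ratio, HYPBUDRAFT_154198 rose by 0.76 ± 0.20 (adjusted p = 0.048; any library except KCl 2, 0.25) and HYPBUDRAFT_153942 by 1.11 ± 0.28 (adjusted p = 0.039; YPD 1, KCl 1 or KCl 2, 0.23). HYPBUDRAFT_152040, one of the 10 most abundant in NaCl at 2163 and 2166 FPKM, was uneven elsewhere, with 332 and 171 in KCl, 376 and 120.0 in sorbitol and 180.4 and 64.4 in YPD, and did not pass (1.13 ± 0.60, adjusted p = 0.27).

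Sorbitol, which adds no ions, gave few calls. Of the 123 NaCl-raised genes, 8 rose in sorbitol against YPD, 6.504% where 3.75% of all tested genes were called higher, and 1 fell where 1.21% were called lower. The median log2 difference was -0.11, against -0.04 over all tested genes. Both sorbitol libraries lay above both YPD libraries for 25 of the 123, where 26.8% of tested genes did so, and below for 50, where 29.5% did so. The comparison shares the YPD libraries with the KCl comparison. The count of 8 fell whichever library was left out, most without YPD 1, NaCl 1, NaCl 2 or sorbitol 1. The calls over all tested genes also fell in each case. The 2 genes called in every case were HYPBUDRAFT_164360 (2.03 ± 0.16, adjusted p = 0.0027) and HYPBUDRAFT_216990 (1.94 ± 0.15, adjusted p = 0.0027).

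The other rises included HYPBUDRAFT_125873, ECM331, DAL1, HYPBUDRAFT_153886 and HYPBUDRAFT_10229. HYPBUDRAFT_125873 stood at 622 and 569.6 FPKM in NaCl, 201 and 149.9 in sorbitol, 189.6 and 156 in KCl, and 64.3 and 87.6 in YPD. It rose by nearly equal amounts in sorbitol (1.20 ± 0.20, adjusted p = 0.026; YPD 1, NaCl 1, NaCl 2 or sorbitol 1, 0.14) and in KCl (1.19 ± 0.20, adjusted p = 0.012; YPD 1 or KCl 1, 0.078). ECM331 rose by 0.91 ± 0.17 (adjusted p = 0.033; any of YPD 1, the NaCl or the sorbitol libraries, 0.16) and DAL1 by 0.93 ± 0.19 (adjusted p = 0.037; any YPD, NaCl or sorbitol library, 0.19). HYPBUDRAFT_153886 (1.33 ± 0.30, adjusted p = 0.046) and HYPBUDRAFT_10229 (1.35 ± 0.31, adjusted p = 0.049) lost the call without any 1 of the 8 libraries, with adjusted p up to 0.18 and 0.16. HYPBUDRAFT_10263, at 289 and 305 FPKM in NaCl, 60.7 and 82.3 in YPD, 50.8 and 65.3 in KCl and 30.9 and 38.6 in sorbitol, fell by 1.01 (SE 0.20, adjusted p = 0.035; any YPD, NaCl or sorbitol library, 0.15).

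KCl and sorbitol were also compared directly, at equal molarity but not at equal osmotic strength. Of the NaCl-raised genes, 26 were higher in KCl than in sorbitol, 21.1% where 3.64% of all tested genes were, and 0 were lower where 2.53% were. At an unadjusted p under 0.05, 57 of the 123 differed, beside 1215 of the 5765 tested genes. The median log2 difference was 0.43, against 0.01 over all tested genes. The count of 26 fell whichever library was left out, most without KCl 2. The calls over all tested genes also fell in each case. The 6 genes called in every case were HYPBUDRAFT_154528 (2.395 ± 0.199, adjusted p = 0.00067), CDC21 (1.85 ± 0.16, adjusted p = 0.00075), IDP1 (1.49 ± 0.14, adjusted p = 0.0013), HYPBUDRAFT_151380 (2.32 ± 0.24, adjusted p = 0.0020), HYPBUDRAFT_4116 (2.08 ± 0.24, adjusted p = 0.0037) and HYPBUDRAFT_164360 (1.37 ± 0.16, adjusted p = 0.0041). For HYPBUDRAFT_216990 the difference did not pass (0.57 ± 0.15, adjusted p = 0.067).

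Calls lost without at least 1 library included HYPBUDRAFT_148595 (2.12 ± 0.39, adjusted p = 0.021; KCl 1 or KCl 2, 0.099), SFC1 (1.41 ± 0.25, adjusted p = 0.019; KCl 2 or either sorbitol library, 0.11), HRQ2 (1.17 ± 0.21, adjusted p = 0.019; KCl 1, KCl 2 or sorbitol 1, 0.10) and LAP3 (1.13 ± 0.19, adjusted p = 0.017; KCl 1, KCl 2 or sorbitol 2, 0.088). LEU2 (1.04 ± 0.18, limma, adjusted p = 0.017; KCl 2 or either sorbitol library) was the single one of the 27 amino acid list genes called here. Over all tested genes 3.64% were called higher in KCl than in sorbitol. ECM331 differed by 1.00 ± 0.17 (limma, adjusted p = 0.017; KCl 1, KCl 2 or sorbitol 2). HYPBUDRAFT_134640 differed by 1.20 ± 0.17 (adjusted p = 0.010; KCl 2 or sorbitol 2, 0.060). HYPBUDRAFT_150334, the neighbour of ILV6, stood at 28.1 and 55.4 FPKM in NaCl, 13.1 and 11.0 in KCl, 2.25 and 3.83 in YPD and 2.09 and 4.58 in sorbitol, and differed by 1.65 ± 0.39 (adjusted p = 0.047; any YPD, KCl or sorbitol library, 0.18). HYPBUDRAFT_153487, at 39.2 and 58.4 FPKM in NaCl, 18.0 and 19.1 in KCl and 5.69 to 9.73 in YPD and sorbitol, differed by 1.21 ± 0.27 (adjusted p = 0.038; either YPD or KCl library or sorbitol 2, 0.17).

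**Figure D5:**
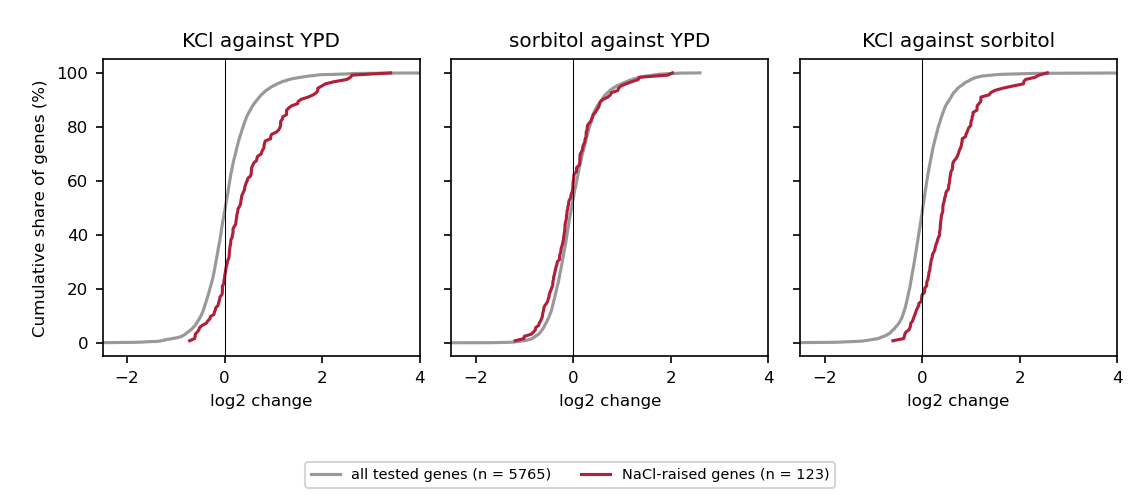
Cumulative share of genes (%) by log2 difference of log2(FPKM + 1) in KCl against YPD, sorbitol against YPD and KCl against sorbitol, for all 5765 tested genes (grey) and the 123 NaCl-raised genes (red); the axis is cut at both ends, beyond which some grey values lie. The red curve lies to the right of the grey one in both KCl panels (medians 0.30 and 0.43 against 0.01) and close to it in the sorbitol panel (-0.11 against -0.04).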

How the data were processed

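The authors deposited 1 value per gene and library, taken as FPKM because the files state no unit. TopHat and Cufflinks were used, per the submitters' processing notes. Their versions, the genome build, annotation and strand setting were not stated in the sources. Symbols were taken from RefSeq's Hypbu1 assembly of strain NRRL Y-1933 (6157 of 6166 genes matched by locus tag).

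Fragment counts were not given. Steps between low values gave a relative depth that differed by up to 2.17 times, lowest in KCl 2, where 10 FPKM in a gene of 1 kb equals about 152 fragments (331 in YPD 2, the deepest). Replicates correlated at r of 0.982 to 0.987 across genes, which are not independent replicates.

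The 5765 genes that reached 1 FPKM in 2 or more libraries were tested on log2(FPKM + 1). One limma fit (version 3.58.1, R 4.3.3) with an intensity trend held the 4 media and all 8 libraries. Adjusted p-values (Benjamini-Hochberg, over all tested genes, per comparison) under 0.05 made a call. Fold changes of genes near 1 FPKM are understated on this scale. The script was tested on simulated data. Values after ± are standard errors from limma.

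The NaCl-raised genes, the 20 gene lists and the tests were chosen with earlier results of these data known. Text names every NaCl-raised gene with a symbol except 1 that is not reported here, the 10 with the largest ratio, the 10 with the highest NaCl level, the 10 largest calls per comparison, the 3 genes on each side of the threshold, and at most 4 other genes per list. Alternatives were other rule thresholds, scalings, pseudocounts and filters, fits on the libraries of 2 media, no trend, a replicate block, and leaving out each library.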

Additional observations from a re-analysis of the deposited data

How the results depend on the processing

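The 123 genes became 211 at a ratio of 1.5 and 65 at a ratio of 3, and 123 to 152 without single libraries. Without single libraries, the calls in KCl against YPD ranged from 12 to 33 (higher 12 to 32, lower 0 to 1, all genes 114 to 610), in sorbitol against YPD from 2 to 8 (higher 2 to 6, lower 0 to 2, all genes 4 to 245) and in KCl against sorbitol from 7 to 20 (all higher, lower 0 to 0, all genes 60 to 264). Genes of the 20 lists called in NaCl against YPD, 145, ranged from 81 to 148. With a model on the libraries of the 2 media compared, AAT1's fall was lost (0 lower in KCl), sorbitol gave 2 calls (2 higher, 0 lower, 20 over all genes) and KCl against sorbitol 9 (9 higher, 90 over all genes). Without the intensity trend sorbitol gave 3 calls (3 higher, 0 lower, 112 over all genes). The sorbitol rises were 5 with a pseudocount of 5 FPKM and 5 with no filter, and with a pseudocount of 0.1 FPKM 2 genes fell. The cause of these shifts was not tested. The numbers of the duplicates were not taken to pair the libraries (the replicate differences correlated at 0.261 to 0.454 among YPD, KCl and sorbitol, and at -0.131, 0.301 and 0.096 between NaCl and YPD, KCl and sorbitol, from 2 numbers per medium). With the replicate number as a block, 39 of the 123 were called in KCl, 13 in sorbitol (5 lower) and 36 in KCl against sorbitol. The calls over all genes were then 856, 516 and 536 in the same order, and 166 list genes were called in NaCl. Crossing the NaCl numbers, an alternative chosen after seeing the data, gave 150. Over the named genes and all alternatives, 3750 results kept their call or lack of it, 196 lost it and 27 gained it. Results with a call in the main or the alternative fit had 0 changes of sign. Signs were not compared where neither fit gave a call.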

Other observations

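The median spread between duplicates of the NaCl-raised genes was like that of all tested genes. Their median absolute log2 difference between duplicates was 0.18 in NaCl, 0.20 in KCl, 0.22 in YPD and 0.23 in sorbitol, against 0.17, 0.22, 0.20 and 0.22 over all tested genes. Duplicates lay more than 1 log2 unit apart for 6 of the 123 in sorbitol, 4 in YPD, 3 in KCl and 0 in NaCl. Over the 5765 tested genes the counts were 165, 89, 159 and 73 in the same order. The rule, set on the lower NaCl library, favours genes whose NaCl duplicates agree. HYPBUDRAFT_154324 was among the NaCl-raised genes this far apart in YPD, KCl and sorbitol. HYPBUDRAFT_179597, the neighbour of NIT2, held 14.3 and 0.982 FPKM in sorbitol, 18.4 and 7.16 in YPD, 25.9 and 38.5 in KCl and 94.1 and 107.7 in NaCl.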
